A study of Mus musculus with 6 samples.

Results

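Epithelial-mesenchymal transition (EMT) regulators and cadherins were followed through 6 libraries of mouse cells that had lost or kept the tumor suppressor gene *Tsc2*. The genes were taken by name, with no threshold on their values: *Cdh1*, *Cdh2*, *Vim*, *Snai1*, *Snai2*, *Twist1*, *Zeb1*, *Zeb2*, *Esrp1* and *Grhl2*, which are 10 of the 30281 gene symbols in the deposited table. All 10 were present in the table, as 52 transcripts. RNA-Seq was performed on 2 lines of mouse embryo fibroblasts (MEFs), *Tsc2*+/+ p53-/- and *Tsc2*-/- p53-/-, both untreated, and on 2 lines of kidney epithelial cells labelled *Tsc2*-null. The kidney lines are MKOC and TJ, TJ being derived from a secondary tumor in C57BL6 mice, and each was given either diluent or 100 nM rapamycin, an mTORC1 inhibitor, for 18 hr in serum-free medium. Each of the 6 conditions is 1 library and each line is 1 line, so the 2 kidney lines serve as the replicates of the rapamycin treatment and the p-values measure only the spread between these libraries. No kidney line with *Tsc2* and no rapamycin-treated MEFs were analysed here, and no sex or age is given for the cells in the sources used here.

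Levels are given as TPM, the per-length measure of a transcript's share of a library that Kallisto reports, summed over the transcripts of a gene, with a 95% interval from counting alone (Wilson interval on the estimated counts). Libraries held between 22887020 and 37505004 estimated counts. *Tsc2* itself was at 22.6 TPM in the *Tsc2*+/+ and 10.5 TPM in the *Tsc2*-/- fibroblasts, and in the kidney lines at 49.1 TPM (MKOC) and 44.0 TPM (TJ) untreated and 19.5 and 19.1 TPM with rapamycin. *Tsc2* reads were thus present in every library, and since the altered part of the gene is not given in the sources used here, this level does not check the genotype. *Trp53*, the gene of p53, was likewise read in both MEF lines labelled p53-/-, at 26.3 and 28.6 TPM. The cell type labels were compared with marker genes. The 8 kidney tubule epithelium markers summed to between 1360 and 2374 TPM in the kidney libraries against 0.677 and 21.7 TPM in the MEFs, with *Pax8* (121 to 164 TPM), *Krt8* and *Cdh16* high, but *Epcam* and *Lhx1* at or near 0. The 8 fibroblast markers summed to 1824 and 2502 TPM in the MEFs and to between 7.73 and 52.1 TPM in the kidney libraries. Endothelium markers summed to at most 3.76 TPM. Leukocyte markers summed to at most 34.9 TPM, nearly all from *Csf1r* and *Cd68*, with *Ptprc* near 0 in all 6 libraries. In bulk RNA, fewer cells of a type and less RNA per cell cannot be told apart.

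EMT is the program in which epithelial cells give up their cell-cell junctions and become motile, and it operates in development, in fibrosis of the kidney and in tumor spread. Cadherins are calcium-dependent adhesion proteins. E-cadherin (*Cdh1*) holds epithelial cells together, and N-cadherin (*Cdh2*) is typical of mesenchymal and neural cells. The transcription factors *Snai1*, *Snai2*, *Zeb1*, *Zeb2* and *Twist1* drive the program, the Snail and ZEB factors by binding E-box DNA in promoters such as that of *Cdh1* and repressing them. On the epithelial side, *Grhl2* is a transcription factor that activates junction genes, and *Esrp1* is an RNA-binding protein that sets epithelial splicing. Vimentin (*Vim*) is the intermediate filament of mesenchymal cells, and is also made by many epithelial lines in culture.

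Promoter windows from RefSeq (GRCm38.p6), which run from 250 bases before to 50 bases after a start site, matched 4 of the 10 genes: *Vim*, *Snai1*, *Twist1* and *Zeb2*. They were searched on both strands for the E-box bound by Snail and ZEB factors, CAGGTG, which the other strand reads as CACCTG. It stands in the *Snai1* window, starting 126 bases upstream of the start site, and in none of the other member windows. Among all 32851 mouse windows, 6640 (20.2%) hold it. Printed below are the window of *Snai1*, which has the match, of *Twist1*, whose RNA was not found in any kidney library, and of *Vim*, whose RNA was abundant in all 6 libraries. Capitals mark the E-box.
Snai1 (chr2:167537945-167538244, + strand): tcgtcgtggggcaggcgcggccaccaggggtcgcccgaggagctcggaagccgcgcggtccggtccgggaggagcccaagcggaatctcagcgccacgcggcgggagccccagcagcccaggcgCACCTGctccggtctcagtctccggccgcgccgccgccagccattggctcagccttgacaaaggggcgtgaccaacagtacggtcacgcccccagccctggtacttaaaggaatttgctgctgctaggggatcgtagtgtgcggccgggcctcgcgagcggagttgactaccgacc
Twist1 (chr12:33957421-33957720, + strand): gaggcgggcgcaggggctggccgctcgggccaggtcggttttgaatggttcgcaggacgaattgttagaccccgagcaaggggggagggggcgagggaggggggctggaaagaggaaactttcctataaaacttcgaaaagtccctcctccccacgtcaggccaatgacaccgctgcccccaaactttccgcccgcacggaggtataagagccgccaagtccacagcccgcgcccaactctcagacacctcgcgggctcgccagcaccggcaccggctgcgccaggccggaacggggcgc
Vim (chr2:13574061-13574360, + strand): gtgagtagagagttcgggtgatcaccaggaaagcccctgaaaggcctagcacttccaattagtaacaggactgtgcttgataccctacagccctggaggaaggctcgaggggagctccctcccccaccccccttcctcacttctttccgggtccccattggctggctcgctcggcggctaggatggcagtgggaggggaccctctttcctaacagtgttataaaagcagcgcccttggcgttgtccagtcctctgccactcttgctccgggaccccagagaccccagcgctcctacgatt

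These windows also differ in CpG dinucleotides, with 34 in *Snai1*, 27 in *Twist1* and 11 in *Vim*, against a median of 7.0 over all windows. A sequence match is a description of these letters only.

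The cadherins separated the fibroblasts from the kidney cells. *Cdh1* (chr8:106603351-106670246, GRCm38) was at 0.0409 TPM in *Tsc2*+/+ MEFs, 0.321 TPM in *Tsc2*-/- MEFs, 101 TPM in untreated and 107 TPM in rapamycin-treated MKOC cells, and 109 TPM in untreated and 128 TPM in rapamycin-treated TJ cells. All 4 kidney libraries lay far above both MEF libraries, and among them only untreated TJ and treated MKOC cells had overlapping counting intervals. *Cdh2* had the opposite order, with 12.6 and 70.3 TPM in *Tsc2*+/+ and *Tsc2*-/- MEFs, 1.32 and 2.69 TPM in untreated and treated MKOC cells, and 0.553 and 0.703 TPM in untreated and treated TJ cells. Both MKOC libraries lay above both TJ libraries, and the 2 TJ intervals overlapped. In TPM, *Cdh2* was 308 and 219 times *Cdh1* in *Tsc2*+/+ and *Tsc2*-/- MEFs, although the *Cdh1* level there rests on 5.5 and 16.8 counts. The ratio was turned around in the kidney cells, where *Cdh1* was 76.2 (MKOC untreated), 40.0 (MKOC treated), 198 (TJ untreated) and 182 (TJ treated) times *Cdh2*.

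*Vim* was by far the most abundant of the 10 genes and did not follow the cadherins. It was at 3522 and 1118 TPM in *Tsc2*+/+ and *Tsc2*-/- MEFs, at 4676 and 7523 TPM in untreated and treated MKOC cells, and at 3609 and 5292 TPM in untreated and treated TJ cells. The lowest level was that of a fibroblast library, and the kidney lines thus carried high *Vim* beside high *Cdh1*.

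**Figure D1:**
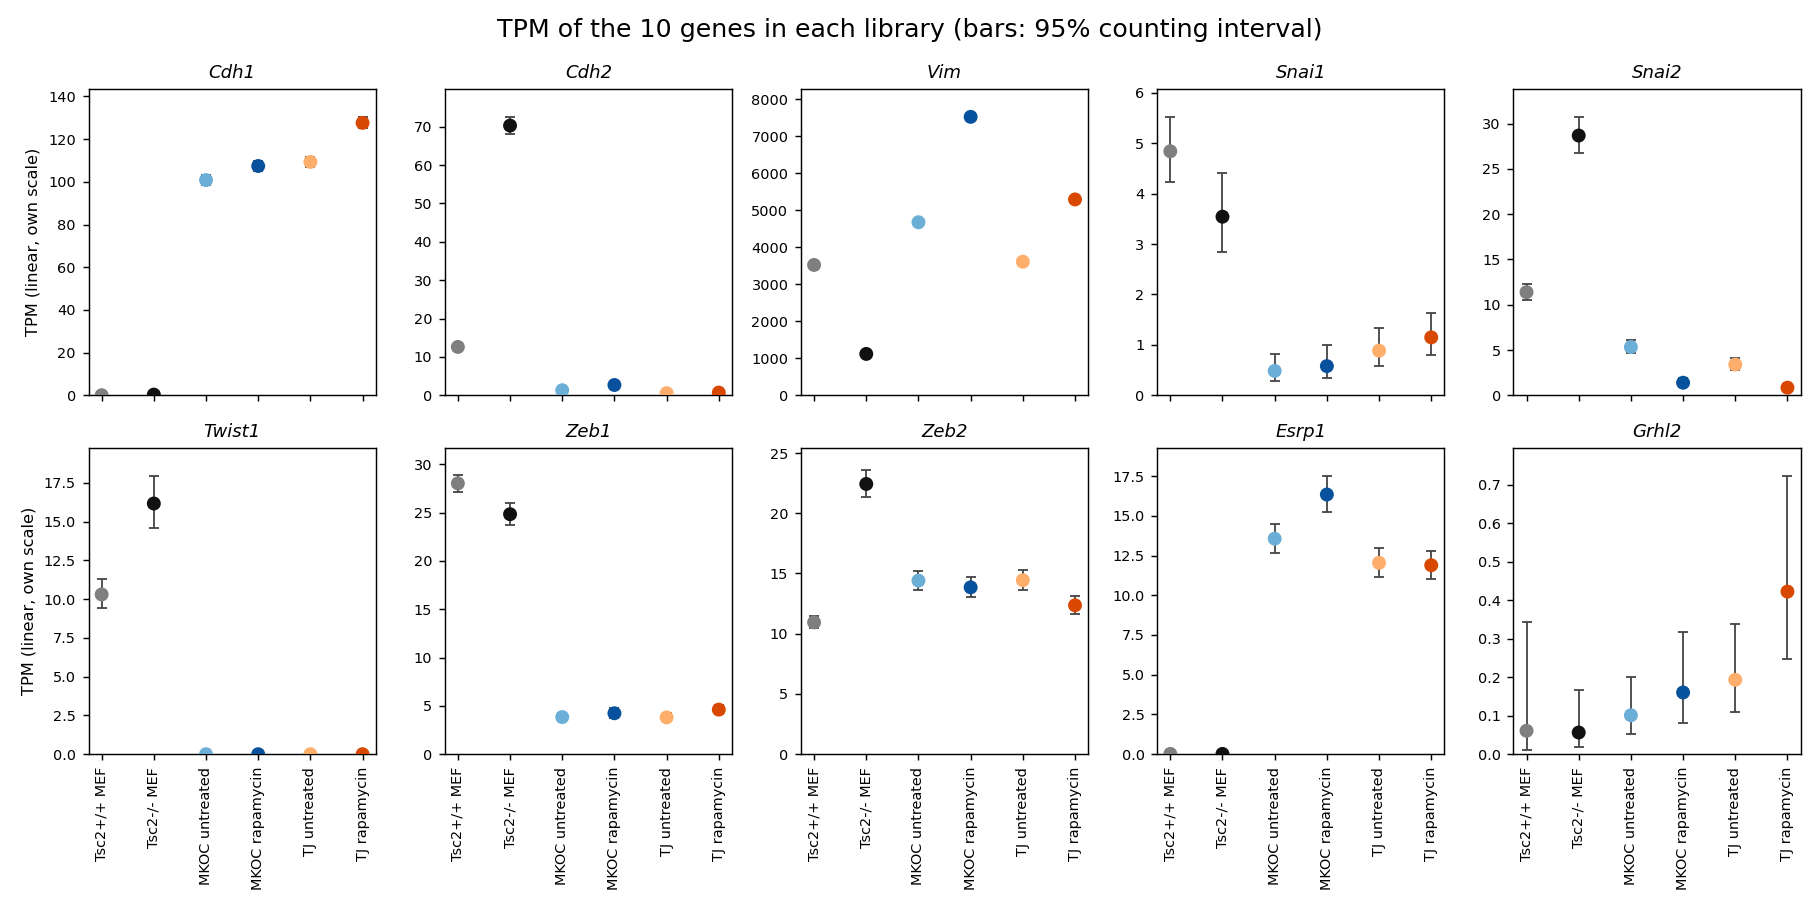
TPM (linear axes that start at 0, each gene on its own scale) of the 10 genes in the 6 libraries, 1 point per library, with bars for the 95% counting interval. Cdh1 and Esrp1 were above 10 TPM only in the 4 kidney libraries, Twist1 was at 0 there, and Snai2 was lower in both rapamycin-treated libraries than in their untreated partners.

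Among the repressors, *Snai1*, *Snai2*, *Twist1* and *Zeb1* were highest in MEFs. *Snai1* was at 4.84 and 3.54 TPM in *Tsc2*+/+ and *Tsc2*-/- MEFs and between 0.484 and 1.15 TPM in the kidney libraries, whose neighbouring intervals all overlapped at 13 to 30 counts each. *Snai2* (chr16:14705852-14709385) was at 11.4 and 28.7 TPM in *Tsc2*+/+ and *Tsc2*-/- MEFs, 5.33 TPM in untreated and 1.39 TPM in treated MKOC cells, and 3.40 TPM in untreated and 0.841 TPM in treated TJ cells. Both treated kidney libraries were the lowest of the 6, and their intervals overlapped. *Twist1* was at 10.3 and 16.2 TPM in *Tsc2*+/+ and *Tsc2*-/- MEFs and had 0 counts in each of the 4 kidney libraries, which with 3 counts as a floor leaves at most 0.110 TPM as a mean over the 2 untreated kidney libraries.

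The ZEB genes differed from each other. *Zeb1* was at 28.0 and 24.8 TPM in *Tsc2*+/+ and *Tsc2*-/- MEFs and between 3.81 and 4.61 TPM in the kidney libraries, where neighbouring intervals overlapped. *Zeb2* was at 10.9 TPM in *Tsc2*+/+ MEFs, 22.4 TPM in *Tsc2*-/- MEFs, 14.4 and 13.9 TPM in untreated and treated MKOC cells, and 14.4 and 12.4 TPM in untreated and treated TJ cells. The kidney levels of *Zeb2* therefore lay between those of the 2 MEF lines. *Zeb1* was 2.56 and 1.11 times *Zeb2* in *Tsc2*+/+ and *Tsc2*-/- MEFs, and *Zeb2* was between 2.68 and 3.79 times *Zeb1* in the 4 kidney libraries.

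The epithelial regulators went separate ways. *Esrp1* (chr4:11331933-11386783) had 1 count in each MEF library and was at 13.6 and 16.3 TPM in untreated and treated MKOC cells and at 12.0 and 11.9 TPM in untreated and treated TJ cells. Treated MKOC cells were highest, and the intervals of the other neighbouring kidney libraries overlapped. *Grhl2* (chr15:37233036-37363569) was close to the detection limit everywhere, from 1 and 3 counts in the MEFs to between 8 and 13 counts in the kidney libraries, at most 0.423 TPM. Its relatives *Grhl1* and *Grhl3*, and *Ovol2*, were likewise near 0 in the kidney lines, at no more than 0.149 TPM. High *Cdh1* and *Esrp1* in these lines were thus accompanied by almost no RNA of the Grhl family.

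Over the 6 libraries, the genes whose log2(TPM + 1) was most like that of *Cdh1*, among 10115 genes with at least 10 TPM in at least 1 library, were *Mal* (Pearson r 0.99992), *Adap1* (0.99956) and *Pax8* (0.99947). All 3 were under 0.5 TPM in both MEF libraries, as was *Cdh1*. *Pax8* is a transcription factor of kidney and thyroid epithelium, and *Mal* is a membrane protein of apical transport. For *Cdh2* they were *Armcx3* (0.99602), *Gtf2h5* (0.99438) and *Ubtd2* (0.99302), whose levels were highest in *Tsc2*-/- MEFs. These coefficients describe 6 points that fall apart by cell type.

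The first comparison asked what accompanied loss of *Tsc2* in MEFs. In *Tsc2*-/- relative to *Tsc2*+/+ MEFs, the mesenchymal cadherin *Cdh2* was 5.24-fold and *Snai2* 2.40-fold higher, while *Vim* was 3.15-fold lower in TPM (fold changes of *Cdh2* and *Snai2* are of TPM with 1 added). With 1 library per genotype these are differences between 2 libraries, with no replicate check and no test. Of the 10 genes, 7 reached 1 TPM in at least 1 MEF library. Among them 2 were at least 2-fold higher and 1 at least 2-fold lower, where 25.2% and 5.18% of 12771 such genes were higher and lower by that much. The median log2 fold change of the 7 was 0.60, against 0.45 over all genes.

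The 2 libraries also differed in scale. Transcripts shorter than 300 bases took 20.9% of TPM in the *Tsc2*+/+ and 7.12% in the *Tsc2*-/- library, and the median ratio over 7377 well measured genes was 1.31. After scaling to a median ratio of 1, the log2 fold change of *Cdh2* was 2.01 and that of *Vim* -2.04, but *Snai2* was at 0.89, below 2-fold, so that 1 member was higher and 1 lower by 2-fold where 15.8% and 8.21% of genes were. *Zeb2* (log2 fold change 0.97 as deposited, 0.60 scaled) and *Twist1* (0.60, 0.24 scaled) differed by less than 2-fold. *Snai1* (-0.36, -0.66 scaled) and *Zeb1* (-0.17, -0.54 scaled) had log2 fold changes below 0, also by less than 2-fold. The counting intervals of *Snai1* in the 2 libraries overlapped (4.24 to 5.53 and 2.84 to 4.42 TPM). *Esrp1* and *Grhl2* had at most 3 counts in both libraries and get no fold change.

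Other cadherins also differed between the MEF lines. *Cdh11* (OB-cadherin of mesenchymal cells) went from 0.370 to 53.4 TPM and *Cdh3* (P-cadherin) from 0.636 to 39.4 TPM, and *Cdh13* (0.198 to 4.86 TPM) and *Cdh10* (0.116 to 2.39 TPM) were also higher in *Tsc2*-/- MEFs. Of the 19 other cadherins listed 5 reached 1 TPM, and these 4 did so in the *Tsc2*-/- library alone, so that their number is set by this minimum. *Cdh22*, which did not reach it, went from 0.599 to 0.0367 TPM, at least 10.9-fold lower against a floor of 3 counts per library. Of 6 cadherin partners, 3 were at least 2-fold higher, *Jup* (plakoglobin, 18.2 to 46.6 TPM), *Vcl* (vinculin, 42.0 to 104 TPM) and *Ctnna1* (alpha-catenin, 97.0 to 212 TPM), but after scaling to a median ratio of 1, an alternative added for the lists after the data were seen, 0 of the 6 were (1.91-, 1.87- and 1.66-fold). Among 9 other EMT factors 2 were at least 2-fold lower (*Prrx1*, 261 to 60.6 TPM, and *Klf8*), and with scaling 3, *Tcf4* (79.0 to 45.6 TPM) being added. Beside the counts of these lists, 25.2% of all genes were at least 2-fold higher and 5.18% lower as deposited. With scaling the shares were 15.8% and 8.21%. Of 5 other epithelial factors 3 were higher and 1 lower, but 2 of the 3 (*Esrp2* and *Rbm47*) reached 1 TPM in the *Tsc2*-/- library alone, and the third was *Klf5* (3.34 to 11.9 TPM). *Esrp2*, the paralog of *Esrp1*, went from 0.0381 to 8.57 TPM while *Esrp1* stayed at 1 count.

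Mesenchymal genes differed in both directions. Of 14, 6 (42.9%, against 25.2% of all genes) were at least 2-fold higher, among them *Tagln* (12.9 to 95.9 TPM), *Fstl1* (39.6 to 112 TPM) and *Itga5* (22.3 to 62.5 TPM), and 2 (14.3%, against 5.18%) were lower, *Fn1* (fibronectin, 1306 to 612 TPM) and *S100a4* (1273 to 164 TPM). One of the 6, *Fap* (0.0474 to 2.47 TPM), reached 1 TPM in the *Tsc2*-/- library alone. With scaling 4 (28.6%, against 15.8% of all genes) were higher and 3 (21.4%, against 8.21%) lower. In the TGF-beta pathway, a main inducer of EMT, 4 of 14 genes (28.6%) were higher, a share near the 25.2% of all genes, including *Tgfb2* (2.75 to 21.1 TPM) and its receptor *Tgfbr2* (13.0 to 58.2 TPM), and 1 was lower, *Ltbp1*, and with scaling 2 (*Tgfb2* and *Tgfbr2*, 14.3% against 15.8% of all genes) were higher and 1 lower. Junction and polarity genes were mostly under 1 TPM in both MEF lines, and of the 5 above it 3 were higher. One of the 3, *Dsp* (0.0376 to 1.55 TPM), reached 1 TPM in the *Tsc2*-/- library alone and was the one to pass 2-fold with scaling, while *Inadl* (6.62 to 14.4 TPM) was then 1.57-fold higher. Beside these values, the 6 mesothelium markers summed to 2.69 TPM in *Tsc2*+/+ and 504 TPM in *Tsc2*-/- MEFs, all 6 reaching 1 TPM in the latter, with *Wt1* (81.6 TPM) and *Upk3b* (154 TPM) at or near 0 in the former. The 14 mesenchymal markers summed to 4310 TPM in *Tsc2*+/+ and 4030 TPM in *Tsc2*-/- MEFs. Like that of mesothelium, the sums of the fibroblast, kidney tubule, leukocyte and endothelium marker lists were higher in *Tsc2*-/- MEFs. Fibroblast markers went from 1824 to 2502 TPM, with *Dcn* from 7.08 to 422 TPM and *Thy1* from 0 to 7.36 TPM. *Col1a1*, *Col3a1* and *Pdgfra* were also higher. *Col1a2* (996 to 788 TPM), *Pdgfrb* (32.95 to 23.2 TPM) and *Lum* (0.135 to 0.0341 TPM) were lower. Kidney tubule markers went from 0.677 to 21.7 TPM, nearly all from *Krt18* (0 to 20.6 TPM), leukocyte markers from 1.75 to 8.90 TPM (*Cd68* 1.69 to 6.78 TPM, *Csf1r* 0.0162 to 1.77 TPM) and endothelium markers from 0.370 to 1.83 TPM. The part of these markers in the cadherin differences was not tested.

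The second comparison asked what rapamycin changed in the *Tsc2*-null kidney lines. *Snai2* fell in both lines and *Vim* rose in both, whereas *Cdh1*, *Zeb1*, *Zeb2*, *Snai1*, *Esrp1* and *Grhl2* did not pass the test. *Snai2* was 3.95-fold lower (log2 change -1.98, SE 0.27, adjusted p = 0.000509, edgeR's quasi-likelihood test with the line as a block and Benjamini-Hochberg adjustment over all genes), at -1.94 in MKOC and -2.01 in TJ cells. It went from 198 to 40.1 counts in MKOC and from 113 to 28.2 counts in TJ cells, and the untreated and treated levels do not overlap. *Vim* rose by 0.66 on the log2 scale (SE 0.12, edgeR adjusted p = 0.00279), at 0.64 in MKOC and 0.68 in TJ cells.

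Of the 9 members tested, 1 was higher and 1 lower with rapamycin, where 17.5% of 12952 genes were higher and 17.4% lower. *Twist1*, with 0 counts, could not be tested. The rise of *Vim* did not pass when the line was left out of the model (adjusted p = 0.128) or with limma on log2(TPM + 1) (adjusted p = 0.0706). *Cdh2* had a log2 change of 0.72 (SE 0.28, edgeR adjusted p = 0.0731), with 0.99 in MKOC and 0.35 in TJ cells, and passed only where no filter on low counts was used (adjusted p = 0.0261).

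For *Cdh1* the log2 change was 0.15 with a 95% interval from -0.07 to 0.36, so that this fit leaves room for a small rise (edgeR adjusted p = 0.271). *Zeb1* had a log2 change of 0.28 (interval -0.07 to 0.62) and *Zeb2* of -0.13 (interval -0.38 to 0.12). *Esrp1* was at 0.13 (interval -0.15 to 0.42). The intervals of *Snai1* (-0.55 to 1.19) and *Grhl2* (-0.84 to 1.25) were wider, at 30 counts or fewer per library. The TPM of *Snai2* went from 11.0 to 2.40 times that of *Snai1* in MKOC cells and from 3.84 to 0.731 times in TJ cells.

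**Figure D2:**
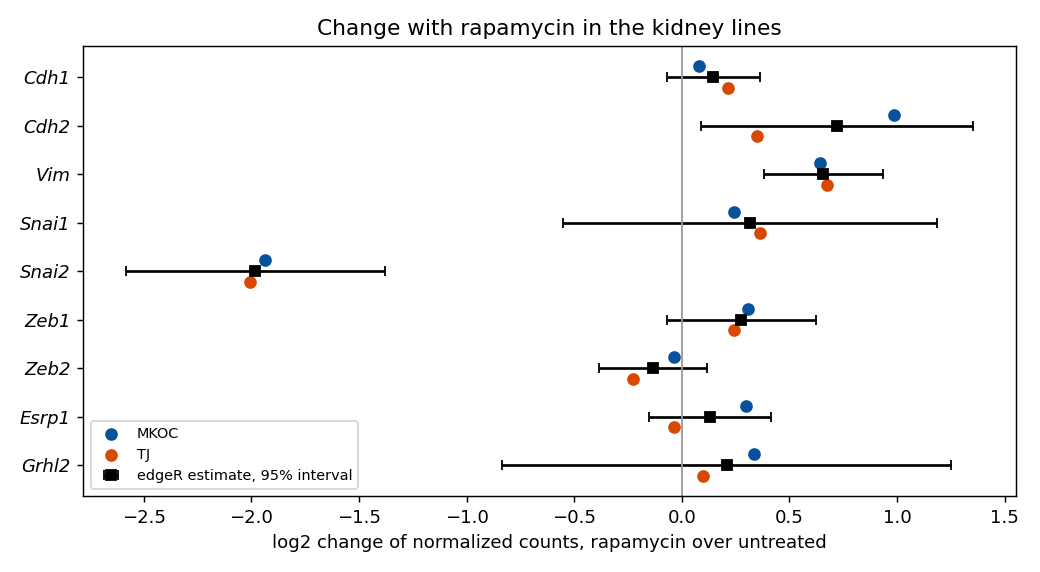
Log2 change of normalized counts, rapamycin over untreated, for the 9 members that could be tested, with circles for each line and squares for the edgeR estimate with its 95% interval. Snai2 lay near -2 and Vim near 0.7 in both lines, and the 2 lines differed most for Cdh2.

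The junction genes that passed the test were higher with rapamycin. Of 13 tested, 8 rose, 0 fell and 5 did not pass, with *St14* at -0.61 among the last. The rise was led by *Cldn1* (claudin-1, log2 change 1.18, SE 0.10, edgeR adjusted p = 2.88e-05), *Inadl* (a polarity scaffold, 0.76), *Cldn3* (0.64) and *Marveld2* (tricellulin, 0.59). Their median log2 change was 0.36, against 0.02 over all genes tested. Of 6 other cadherins, 2 rose, *Cdh3* (0.52) and the kidney cadherin *Cdh16* (0.37), and of 6 partners 3 rose, *Ctnnd1* (p120-catenin, 0.51), *Jup* (0.42) and *Vcl* (0.32), each by edgeR. Beside these counts and that of the junction genes, 17.5% of 12952 genes rose and 17.4% fell.

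Among mesenchymal and TGF-beta genes too, those past the test were higher with rapamycin. Of 12 mesenchymal markers 3 rose, 0 fell and 9 did not pass, where 17.5% of all genes rose, and those that rose included *S100a4* (0.75) and *Col3a1* (1.53), the latter at no more than 1.07 TPM in any kidney library. Of 14 TGF-beta genes 9 rose and 0 fell, led by *Ltbp1* (which tethers latent TGF-beta, 1.60), the inhibitory *Smad7* (1.06), the signal transducer *Smad3* (1.03) and the coreceptor *Tgfbr3* (0.76). Their median was 0.48. Among 7 other EMT factors, 2 rose, *Hmga2* (1.82, from 0.296 to 1.09 TPM in MKOC and 0.0784 to 0.265 TPM in TJ cells) and *Sox4* (0.49). Among 7 other epithelial factors, 3 rose, *Ehf* (0.68), *Klf5* (0.58) and *Esrp2* (0.41), and 2 fell, *Klf4* (-0.68) and *Rbm47* (-0.43). Of 6 kidney tubule markers tested, 3 rose (*Krt8*, *Krt18* and *Cdh16*), and of 7 fibroblast markers 2 rose (*Dcn* and *Col3a1*). The mesothelium marker *Msln* and the leukocyte marker *Csf1r* also rose. Another leukocyte marker, *Cd68*, had a log2 change of -0.56 and did not pass (edgeR adjusted p = 0.0967). By edgeR, 0 of 2 endothelium markers passed, with 0 at an unadjusted p under 0.05. The part of these markers in the changes of *Snai2* and *Vim* was not tested.

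The third comparison set the untreated kidney lines against the MEFs. The 2 groups differ in tissue and cell type, which cannot be told apart, 1 of the 2 MEF lines has *Tsc2* while neither kidney line does as labelled, and a p53 genotype is labelled for the MEFs alone. *Cdh1* and *Esrp1* were higher in the kidney lines, and *Cdh2*, *Twist1* and *Zeb1* were lower. *Cdh1* had a log2 difference of 9.60 (SE 0.85, adjusted p = 0.0169, edgeR's quasi-likelihood test, 2 against 2 libraries), and of 8.81 and 11.06 without the *Tsc2*+/+ and the *Tsc2*-/- MEF library. *Esrp1* (edgeR adjusted p = 0.0100) was 839-fold higher as a ratio of counts scaled to library size, with a counting interval from 232 to 6931, since it rests on 1 count in each MEF library. *Cdh2* had a log2 difference of -5.43 (SE 0.98, edgeR adjusted p = 0.0492), which did not pass with limma on log2(TPM + 1) (adjusted p = 0.0743) and which was -6.07 and -4.09 without the *Tsc2*+/+ and the *Tsc2*-/- MEF library and -6.16 without untreated MKOC, where it did not pass. *Zeb1* had a log2 difference of -3.10 (SE 0.30, edgeR adjusted p = 0.0201). *Twist1* was at least 120-fold lower against a floor of 3 counts per library (edgeR adjusted p = 0.0243).

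These are 2 members higher and 3 lower of 9 tested, where 4.74% of 13473 genes were higher and 5.20% lower. *Esrp1* and *Twist1* passed the filter on low counts through the group where they were high alone, both libraries of the other group being under its minimum. *Cdh1*, with 5.5 and 16.8 counts in *Tsc2*+/+ and *Tsc2*-/- MEFs, also needed its kidney libraries to pass the filter. *Snai2* (log2 difference -2.22, SE 0.49, edgeR adjusted p = 0.0658) and *Snai1* (-2.78, SE 0.68, edgeR adjusted p = 0.0790) did not pass, though the MEF and untreated kidney values did not overlap for either. Both passed with DESeq2 (adjusted p = 0.000526 and 0.00755) and with edgeR over all 6 libraries (0.0340 and 0.0425), and *Snai1* also with limma (adjusted p = 0.0478). *Zeb2* had a log2 difference of -0.29 with an interval from -0.86 to 0.29, which does not reach the 8.59-fold difference of *Zeb1*. *Vim* had a log2 difference of 0.52 with a wide interval, from -1.51 to 2.54, and was at -0.14 without the *Tsc2*-/- MEF library (edgeR adjusted p = 0.647) and at 1.85 without the *Tsc2*+/+ one, where it passed (edgeR adjusted p = 0.00206). Without either of the untreated kidney libraries, MKOC or TJ, 0 members passed by edgeR, where 0 genes of 14636 or 14606 passed in all and 1511 or 1487 were under an unadjusted p of 0.05. Without the *Tsc2*+/+ or the *Tsc2*-/- MEF library 8 and 7 members passed.

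Around the members, the junction genes that passed the test were higher in the kidney lines, and most mesenchymal markers that passed were lower. Over all 13473 genes tested, 4.74% were higher and 5.20% lower. Of 13 junction and polarity genes tested 8 were higher and 0 lower, 5 of the 8 having passed the filter on low counts through the kidney libraries alone, among them *Ocln* (occludin), *Cldn1*, *Cldn4* and *St14*, which were at 13.7, 43.0, 74.5 and 2.69 TPM in untreated MKOC cells and at no more than 0.436 TPM in either MEF line. *Epcam* and *Cldn7*, usual epithelial genes, were at or near 0 in all 6 libraries. Of 6 other cadherins, 3 were higher, *Cdh16* (395 and 578 TPM in untreated MKOC and TJ cells), *Cdh17* and *Cdh5*, and 1 lower, *Cdh24*, with 2 of the 3 having passed the filter through the kidney libraries alone. *Cdh3* was at 101 and 84.2 TPM in untreated MKOC and TJ cells, near *Cdh1* in MKOC and below it in TJ cells, and did not pass, with 39.4 TPM in *Tsc2*-/- MEFs (edgeR adjusted p = 0.388). Of 13 mesenchymal markers 9 were lower, 2 of them having passed the filter through the MEFs alone, and 1 was higher. The decrease was led by *Col3a1* (log2 difference -13.05), *Col1a1* (-11.78), *Lox* (-11.33) and *Acta2* (-9.30).

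**Figure D3:**
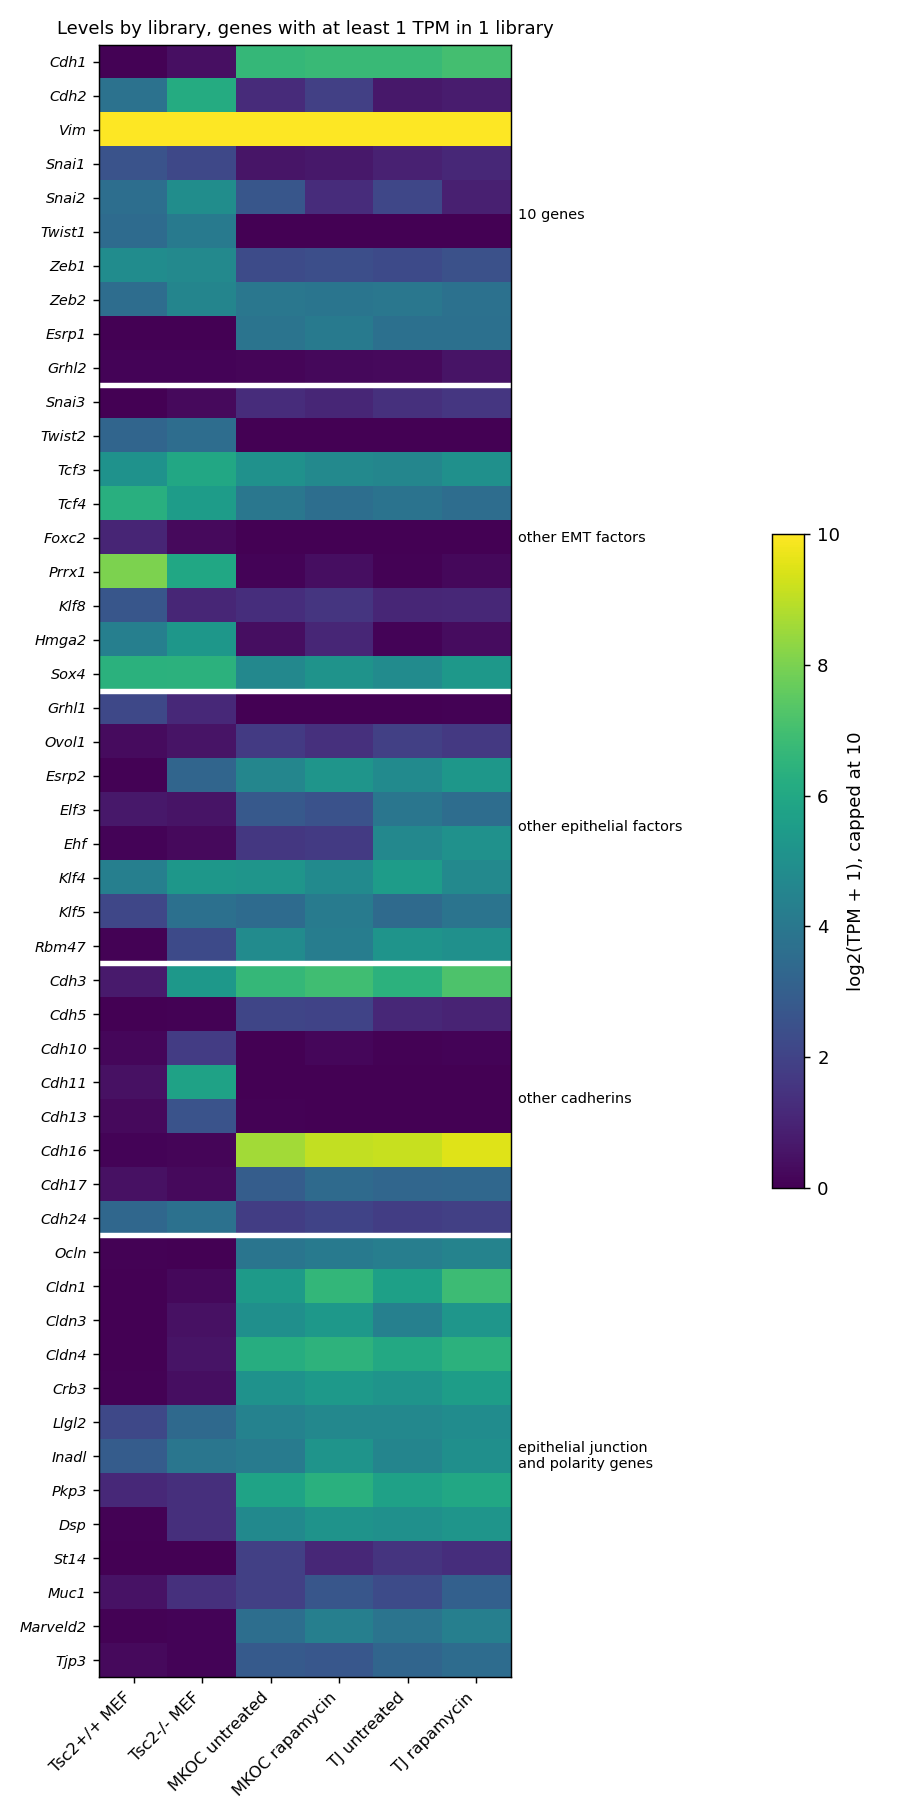
Color scale of log2(TPM + 1), capped at 10, for the 10 genes and for reported genes of 4 related lists with at least 1 TPM in at least 1 library (rows) in the 6 libraries (columns). Junction genes such as Cldn4 and the cadherins Cdh1, Cdh3 and Cdh16 were high in the kidney columns, while Vim was at the top of the scale in every column.

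Other EMT factors were counted beside *Twist1* and *Zeb1*, again where 4.74% of all genes were higher and 5.20% lower. Of 9 tested 4 were lower in the kidney lines and 0 higher: *Prrx1* (261 and 60.6 TPM in MEFs, at most 0.288 TPM in any kidney library), *Twist2* (8.69 and 11.0 TPM, at most 0.0235 TPM), *Hmga2* and *Sox4*, of which 2 passed the filter through the MEFs alone. Among 8 other epithelial factors 1 was higher, *Elf3* (log2 difference 4.11, edgeR adjusted p = 0.0472). Of 6 cadherin partners 1 was higher, *Mllt4* (afadin, 0.99), and beta-catenin, *Ctnnb1*, was at -0.02. Of 14 TGF-beta genes 0 passed by edgeR in either direction, with 5 at an unadjusted p under 0.05.

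*Esrp1* and *Esrp2* direct the inclusion of epithelial exons, which the transcript table allows to be read out. The exons below were chosen after the values were seen, are taken from GENCODE M21 (GRCm38, minus strand) and their intervals leave out the uncertainty of dividing reads among similar transcripts. In *Enah*, an actin regulator, the transcript with the 63-base exon (chr1:181911597-181911659) held 3.76% and 5.01% of the counts of protein-coding transcripts across it in *Tsc2*+/+ and *Tsc2*-/- MEFs. In untreated and treated MKOC cells the share was 34.1% and 32.1%, and in untreated and treated TJ cells 35.0% and 29.6%. The 95% Wilson intervals of all kidney libraries (lowest bound 28.5%) lay above those of the MEFs (highest bound 5.82%).

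*Fgfr2*, a fibroblast growth factor receptor, has a pair of mutually exclusive exons, the IIIb exon of the epithelial form (chr7:130199758-130199905) and the IIIc exon of the mesenchymal form (chr7:130198419-130198563). The first took 7.89% and 7.19% of counts with either exon in *Tsc2*+/+ and *Tsc2*-/- MEFs, 41.4% and 42.2% in untreated and treated MKOC cells, and 25.8% and 54.6% in untreated and treated TJ cells. Kidney shares were higher than MEF shares, and in TJ cells the untreated interval (17.3% to 35.3%) lay below the treated one (47.5% to 62.0%), a difference between 2 libraries that MKOC cells did not show. As a share of TPM in place of counts the values were 10.6% and 11.6% in the MEFs, 54.3% and 53.4% in MKOC and 43.7% and 68.4% in TJ cells. The *Tsc2*-/- MEFs, with 8.57 TPM of *Esrp2* and 1 count of *Esrp1*, had shares close to those of *Tsc2*+/+ MEFs. As whole genes, of the 6 listed as spliced under ESRP control 0 passed between kidney lines and MEFs by edgeR, with 2 (*Enah* and *Fgfr2*) at an unadjusted p under 0.05. With rapamycin 1 of the 6 fell, *Enah* (-0.30), where 17.4% of all genes fell. In *Tsc2*-/- MEFs 3 of the 6 were at least 2-fold higher than in *Tsc2*+/+ MEFs, including *Fgfr2* and *Scrib*, and 1 lower, *Cd44* (92.3 to 29.1 TPM). Over all genes 25.2% were higher and 5.18% lower. After scaling 0 were higher (*Fgfr2* 1.71-fold and *Scrib* 1.66-fold) and *Cd44* was still lower, where 15.8% and 8.21% of genes were higher and lower.

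**Figure D4:**
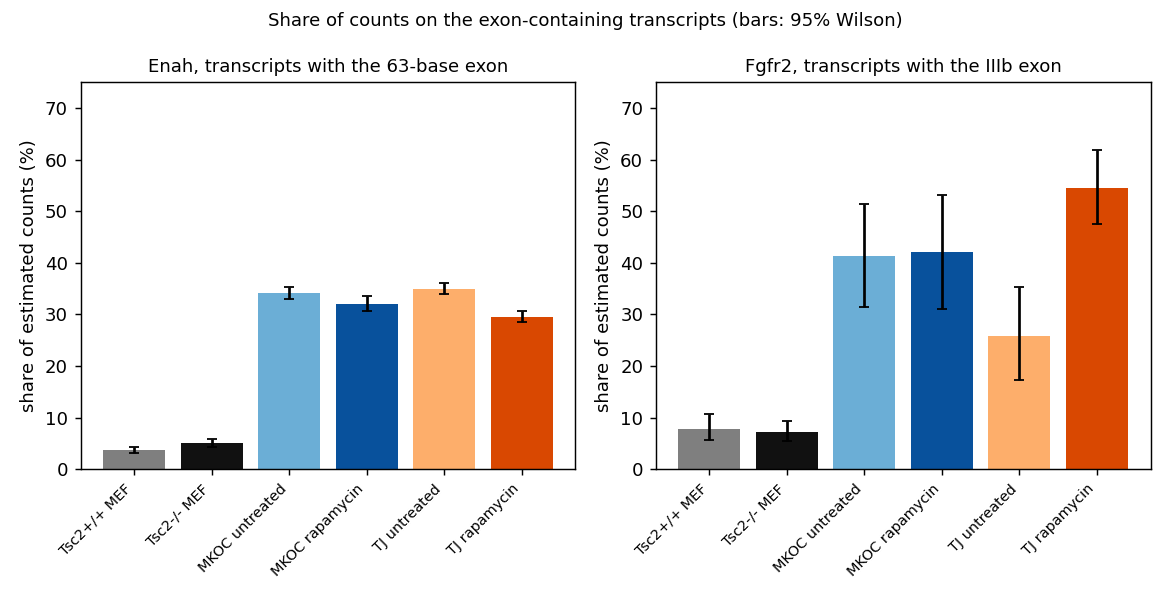
Share of estimated counts (%, axis from 0) on transcripts with the 63-base exon of Enah (left) and the IIIb exon of Fgfr2 (right) in the 6 libraries, with 95% Wilson intervals. The MEF bars were at most 7.89% and the kidney bars at least 25.8%.

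The last comparison set TJ against MKOC cells, over untreated and treated libraries. *Cdh2* was 3.02-fold lower in the tumor-derived TJ line (log2 difference -1.59, SE 0.29, adjusted p = 0.00831, edgeR's quasi-likelihood test with treatment as a covariate). The other 8 members tested did not pass, so that 0 were higher and 1 lower, where 5.47% of 12952 genes were higher and 3.32% lower in TJ. *Vim* had a log2 difference of -0.41 (edgeR adjusted p = 0.0721), *Snai2* of -0.70 (0.141), *Esrp1* of -0.35 (0.129) and *Snai1* of 0.91 (0.203). *Cdh1* (interval -0.06 to 0.38), *Zeb1* (-0.31 to 0.38) and *Zeb2* (-0.45 to 0.05) had intervals that include 0. Without treatment in the model *Cdh2* did not pass (adjusted p = 0.671), with a log2 difference of -1.65. Each line is 1 line, so the test compares these lines over 2 dishes each.

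Among related genes, 3 of 7 epithelial factors were higher in TJ, led by *Ehf* (2.09 and 24.3 TPM in untreated MKOC and TJ cells, log2 difference 4.05, edgeR adjusted p = 5.87e-07), an ETS factor of epithelia, followed by *Elf3* (1.17) and *Rbm47* (0.52). Of 6 other cadherins, *Cdh19* (2.12, below 1 TPM) and *Cdh16* (0.47) were higher and *Cdh5* (-1.57) was lower. Of 7 other EMT factors 1 was lower, *Hmga2* (0.296 and 0.0784 TPM in untreated MKOC and TJ cells). Of 12 mesenchymal markers, *Fn1* (-1.29) and *Tnc* (-0.60) were lower and *S100a4* (0.72) was higher. *Tgfb3* (0.87) was higher and *Ltbp1* (-0.88) lower among 14 TGF-beta genes. Beside these list counts, 5.47% of all genes were higher and 3.32% lower in TJ. *Tjp3* (0.68) was higher among 13 junction genes, and 0 of 6 cadherin partners passed by edgeR, with 0 at an unadjusted p under 0.05. Beside these, the fibroblast marker *Dcn* (-2.12) was lower and *Pdgfrb* (2.63) higher in TJ, the latter at no more than 0.180 TPM. The leukocyte marker *Csf1r* (0.94) was higher and the mesothelium marker *Msln* (-0.43) lower. Of the 6 genes spliced under ESRP control, *Magi1* (0.50) and *Enah* (0.46) were higher in TJ. The part of these markers in the difference of *Cdh2* was not tested.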

How the data were processed

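RNA-Seq was analysed for 6 mouse libraries. Per the labels, total RNA was extracted with a miRNAeasy kit and libraries were made with a TruSeq Stranded mRNA kit. The authors trimmed reads with Trimmomatic and ran Kallisto, also named in the submitters' processing notes, whose version is not given in the sources used here, and deposited estimated counts and TPM for 88198 transcripts. The methods name a human reference, but the table lists mouse transcripts. Transcripts without a symbol (1006, at most 0.468% of counts) were left out. The authors' own fold changes in the table were not used. Columns with no matched sample numbered 0.

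TPM and estimated counts were summed per symbol. MEF fold changes used TPM with 1 added, as in the authors' methods. Counts were rounded, and after filterByExpr and TMM normalization the quasi-likelihood test of edgeR 4.0.16 was applied (R 4.3.3), with Benjamini-Hochberg adjustment at 0.05. The 95% intervals of log2 changes come from the same fit. The line was the block for rapamycin. Labels give the pairing, and across 12952 genes the deviations from the treatment means correlated at 0.56 within lines. Fitting was tested on simulated data. Alternatives used DESeq2 1.42.0, limma 3.58.1 and other scalings, filters and pseudocounts. The floor was 3 counts per library, and intervals from counts cover counting error only.

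The members and gene lists were chosen with earlier results of these data known. Named genes are all members, up to 4 genes per list with the largest change past the threshold (for MEFs, with at least 10 TPM in 1 library), marker genes, *Tsc2* and the 3 genes most like *Cdh1* and *Cdh2*. *Fn1*, *Klf8*, *Cdh3*, *Esrp2*, *Enah*, *Fgfr2*, *Epcam*, *Cldn7*, *Ctnnb1*, *Grhl1*, *Grhl3*, *Ovol2*, *Tcf4*, *Dsp*, *Fap*, *Cdh10*, *Cdh13*, *Cdh22*, *Rbm47*, *Trp53* and the marker genes given singly were added after their values were seen. Some genes of the lists are not reported here. Promoter sequences are from RefSeq (GRCm38.p6), and all 52 member transcripts were found in GENCODE M21 (GRCm38) under the same symbol.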

Additional observations from a re-analysis of the deposited data

Results flagged for a closer look

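The change of *Esrp1* with rapamycin went in opposite directions in the 2 kidney lines, with a log2 change of 0.296 (MKOC) against -0.0373 (TJ), 1 library per line and treatment. The difference between the lines was not tested, since no residual spread is left for an interaction. Untreated and treated intervals overlapped in TJ cells and did not in MKOC cells.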

How the results depend on the processing

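No member past a threshold changed direction under any alternative tried. Of those not past it, *Vim* in the kidney lines against MEFs went from 0.52 to -0.14 (log2) without the *Tsc2*-/- library and to 1.85 (past the threshold) without the *Tsc2*+/+ one, *Esrp1* with rapamycin differed in sign between the lines, and *Esrp1* and *Grhl2* in MEFs, at 3 counts or fewer, lay around 0. Of the MEF counts, 3 members passed 2-fold as deposited and 5 did with a pseudocount of 0.1 TPM, where *Cdh1* and *Zeb2* were added. The share of genes at least 2-fold higher was 10.6% over all symbols in place of 25.2%. For rapamycin, 2 members passed, but 1 with limma and 1 with no replicate block, where *Vim* was lost (the cause was not tested). In all, 4526 genes passed with the line as block and 1275 without this pairing. Leaving out a line left a change in 1 line with no test. For the kidney lines against MEFs, 5 members passed, 7 with DESeq2 and 7 with all 6 libraries (*Snai1* and *Snai2* gained), 5 with limma (*Cdh2* lost, *Snai1* gained), and between 0 and 8 did when 1 library was left out, where the lone library of an arm is assumed to vary like the others. Over all genes, 1338 passed, 3969 with DESeq2, 3235 with all 6 libraries, and between 0 and 7924 with 1 library left out. For TJ against MKOC, 1 member passed, 2 with DESeq2, 2 with no filter (*Vim* added) and 0 with treatment left out, where 0 genes passed and 702 had an unadjusted p under 0.05. Over all genes 1139 passed, 630 with DESeq2, 605 with limma and 1753 with no filter. Counts limit *Snai1*, *Grhl2* and, in MEFs, *Cdh1* and *Esrp1*.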
